A study of Homo sapiens with 4 samples.

Results

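The SMN complex and the proteins that prepare its cargo were followed on exon arrays of K562 and HepG2-labelled cells, with or without an siRNA against ADAR, an adenosine deaminase of double-stranded RNA. The 10 genes are GEMIN2, GEMIN4, GEMIN5, GEMIN6, GEMIN7, DDX20 and STRAP of the SMN complex, and CLNS1A, PRMT5 and WDR77 of the methylosome. They were matched by gene symbol, and all 10 were found among the 14232 genes that a single-symbol transcript cluster (the array's probe set for a gene) represented. SMN1 and SMN2, the genes of the SMN protein itself, had no such cluster and were not followed. The set was chosen because GEMIN2 was higher in ADARkd than in SCR in both lines, so differences between those arms are given as a description with no test.

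There were 4 arrays. In K562, a chronic myeloid leukaemia line, and in the line labelled HepG2, a hepatocellular carcinoma line, cells had been stably transfected with a plasmid for an siRNA against ADAR1 (ADARkd) or for a scrambled siRNA (SCR, the control). Each line and arm had 1 array, so differences between arms have no replicate behind them. K562 had been grown in RPMI medium and the other line in DMEM, so that line and medium cannot be told apart. All 4 groups share the plasmid transfection, and the labels do not say whether a group is 1 clone or a pool. The siRNA was the one that lowered ADAR most among those the submitters tried.

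Spliceosomal snRNPs are built in the cytoplasm. The methylosome, made of the arginine methyltransferase PRMT5, its cofactor WDR77 and the chaperone CLNS1A (pICln), modifies and pre-orders Sm proteins. The SMN complex then recognises the snRNA and closes the Sm ring around it, after which the particle is imported into the nucleus and matures in Cajal bodies. Every cell that splices needs this route, and loss of SMN protein causes spinal muscular atrophy.

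The knockdown and the identity of the arrays were checked first. ADAR stood at 6.78 in K562 ADARkd against 7.99 in K562 SCR on the log2 intensity scale, and at 7.27 in ADARkd against 8.96 in SCR on the arrays labelled HepG2. These are 43.2% and 31.0% of the SCR intensity; in RNA from many cells, fewer cells with a transcript and less of it per cell cannot be told apart. In K562, 9 of 11 measured erythroid markers lay at or above the filter level, the median of all genes (5.28 in K562 and 5.31 on the arrays labelled HepG2). Of 18 measured hepatocyte markers, FOXA1 and CPS1 alone did so on the arrays labelled HepG2. The albumin gene ALB was at 2.97 in ADARkd and 3.04 in SCR there, so the name HepG2 is used below as a label only. Of 12 fibroblast and stromal markers, 5 lay at or above that level on the ADARkd array and 8 on the SCR array labelled HepG2. COL1A1, COL3A1 and FAP reached it in SCR alone. The 5 genes at or above it on both arrays did not all differ in 1 direction. LUM (10.02 in ADARkd, 9.24 in SCR) and DCN (8.98 and 8.34) were higher in ADARkd. FN1 (5.98 and 7.78), VIM (8.85 and 9.41) and COL5A1 (6.10 and 6.46) were lower. The stromal list's summed intensity was 2281 in ADARkd and 2303 in SCR there (list medians 5.02 and 6.34 on the log2 scale), against 513 in ADARkd and 548 in SCR of K562. No lymphocyte marker of 12 reached the level in either line. The part of cell identity in the results below was not tested.

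GEMIN2 and WDR77 were the members at least 1.5-fold higher in ADARkd in a line, GEMIN2 in K562 and WDR77 on the arrays labelled HepG2. Their promoters are shown for that reason, from 250 bases before to 50 bases after the RefSeq start, in the direction of transcription. Capitals mark the motifs searched on both strands, which were picked after the promoters had been read: the NRF1 core CGCATGCG, the BANP core CTCGCGAG, the E-box CACGTG, the promoter box CCAAT, the ETS string CCGGAAG and the YY1 string AAGATGGC. None of the marked matches overlap. GEMIN2 lies at chr14:39114073-39114372 on the plus strand and WDR77 at chr1:111449207-111449506 on the minus strand of GRCh38.p14.
GEMIN2: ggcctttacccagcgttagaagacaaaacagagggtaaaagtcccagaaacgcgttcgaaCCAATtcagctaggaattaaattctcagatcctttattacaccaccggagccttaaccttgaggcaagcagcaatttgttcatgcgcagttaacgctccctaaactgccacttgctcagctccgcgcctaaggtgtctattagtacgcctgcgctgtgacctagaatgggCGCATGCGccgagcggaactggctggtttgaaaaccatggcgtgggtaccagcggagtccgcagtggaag
WDR77: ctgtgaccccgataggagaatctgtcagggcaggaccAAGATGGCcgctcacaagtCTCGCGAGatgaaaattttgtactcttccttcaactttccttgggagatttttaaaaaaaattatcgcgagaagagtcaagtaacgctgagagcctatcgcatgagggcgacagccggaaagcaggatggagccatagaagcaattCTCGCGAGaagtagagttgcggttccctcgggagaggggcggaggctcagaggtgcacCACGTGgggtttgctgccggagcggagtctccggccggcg

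The GEMIN2 window holds 1 NRF1 match whose first base lies 20 bases before the start site, and 1 CCAAT box. That NRF1 string occurs in 2.02% of the 35116 promoters in the table and in no other window of these 10 genes. WDR77 has 2 BANP matches, beginning 194 and 48 bases before the start site, a string found in 1.02% of all promoters, and 1 match each to the E-box and YY1 strings. The 10 genes have 12 windows, 3 of them of GEMIN7, of which 2 overlap. CCAAT was found for GEMIN2, DDX20, STRAP and PRMT5 (34.6% of all promoters), CACGTG for GEMIN7 and WDR77 (7.26%), CCGGAAG for CLNS1A and GEMIN4 (10.3%) and AAGATGGC for PRMT5 and WDR77 (2.89%). These are matches of letters, and no binding was measured.

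The levels of each gene on the 4 arrays are shown in the plot of log2 intensity by group. All 10 genes passed the filter, which kept a gene in a line if the mean of its ADARkd and SCR values reached that line's level. For GEMIN2 the SCR value alone lay under the level in both lines, and the gene passed through its higher ADARkd value. The other 9 genes lay above the level on every array.

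**Figure D1:**
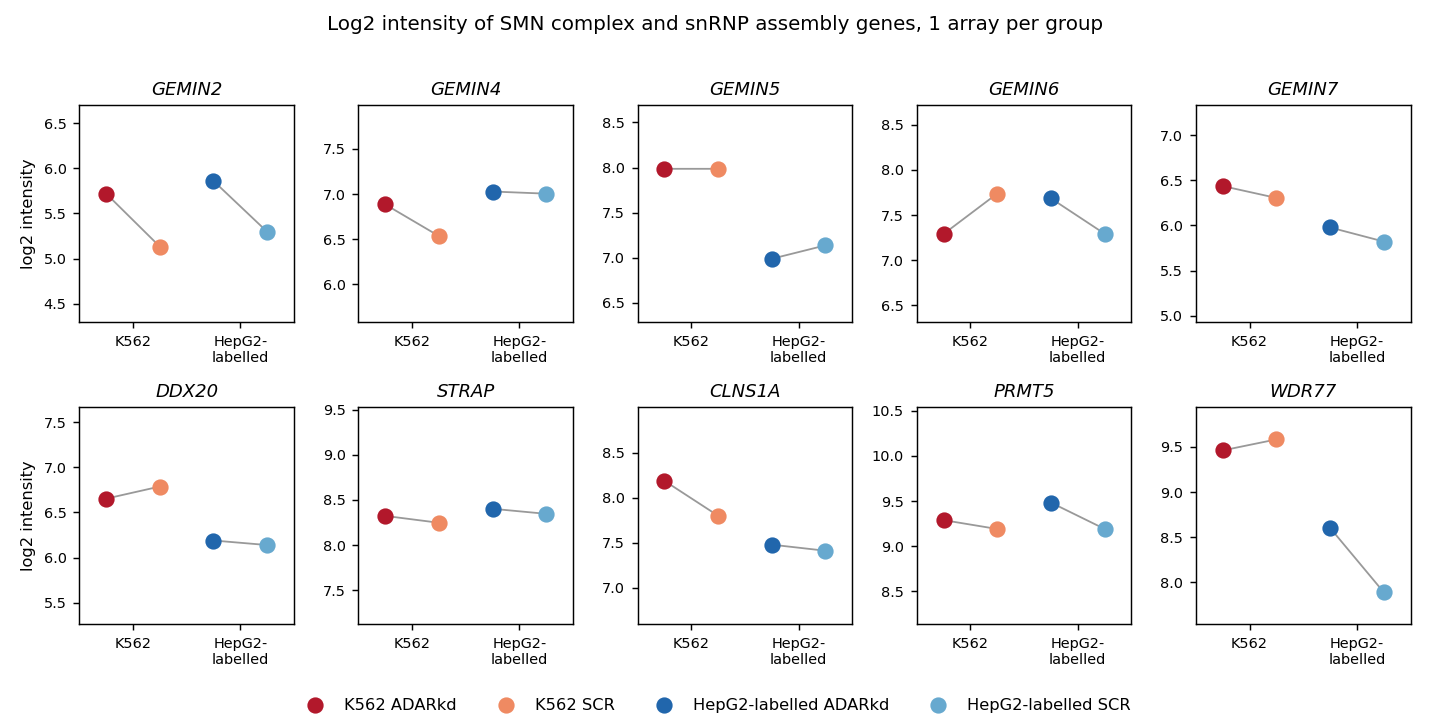
Log2 intensity (y axis) of the 10 genes on the 4 arrays, 1 point per array, with a grey line joining the ADARkd and SCR arrays of a line; every y axis spans the same number of log2 units. GEMIN2 is higher in ADARkd in both lines, GEMIN6 has opposite slopes in the lines, and both K562 points of WDR77, GEMIN5, DDX20, GEMIN7 and CLNS1A lie above both points labelled HepG2.

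GEMIN2, the subunit that cradles the incomplete ring of Sm proteins before the snRNA joins, stood at 5.72 in K562 ADARkd against 5.13 in K562 SCR. The arrays labelled HepG2 gave 5.86 in ADARkd against 5.30 in SCR. Both ADARkd arrays were above both SCR arrays, and the differences of 0.59 and 0.56 on the log2 scale correspond to 1.502-fold and 1.477-fold. GEMIN2 was number 19 from the highest difference among the 7116 genes kept in K562, and number 934 of the 7116 kept on the arrays labelled HepG2. These values chose the set. RefSeq names 2 pseudogenes of GEMIN2, whose transcripts could share its probes. It also names 1 pseudogene each of GEMIN7, DDX20, CLNS1A, PRMT5 and WDR77, so the same limit holds for those members.

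GEMIN6 and GEMIN7 form a heterodimer with folds like those of Sm proteins inside the SMN complex. GEMIN6 stood at 7.29 in K562 ADARkd against 7.74 in K562 SCR, and at 7.69 in ADARkd against 7.29 in SCR on the arrays labelled HepG2. Its differences, -0.45 and 0.39, had opposite signs, and only 2.49% of genes kept in K562 had a lower difference. GEMIN7 stood at 6.44 in K562 ADARkd against 6.30 in K562 SCR and at 5.98 in ADARkd against 5.82 in SCR on the arrays labelled HepG2. Its differences of 0.13 and 0.16 had the same sign, unlike those of its partner. GEMIN8, which tethers this pair to the rest of the complex and is not among the 10 genes, stood at 5.80 in K562 ADARkd against 5.86 in K562 SCR and at 5.82 in ADARkd against 6.33 in SCR on the arrays labelled HepG2, differences of -0.06 and -0.51. GEMIN8 has 4 named pseudogenes. The other 2 genes listed with it, SMN1 and SMN2, had no single-symbol transcript cluster and were not analysed here.

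GEMIN5 is the WD-repeat protein that reads the Sm site of the snRNA. It stood at 7.99 in both K562 arms, and at 6.99 in ADARkd against 7.14 in SCR on the arrays labelled HepG2, where the difference was -0.15. DDX20 (Gemin3), a DEAD-box helicase, stood at 6.65 in K562 ADARkd against 6.79 in K562 SCR and at 6.19 in ADARkd against 6.14 in SCR on the arrays labelled HepG2. GEMIN4, its direct partner, stood at 6.88 in K562 ADARkd against 6.53 in K562 SCR, a difference of 0.35, number 124 from the highest among 7116 kept genes. The arrays labelled HepG2 gave 7.03 in ADARkd against 7.005 in SCR. STRAP (unrip), the WD-repeat protein of the cytoplasmic complex, stood at 8.32 in K562 ADARkd against 8.25 in K562 SCR and at 8.40 in ADARkd against 8.35 in SCR on the arrays labelled HepG2, differences of 0.08 and 0.06. Of these subunits GEMIN4 in K562 was the farthest from its SCR value.

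Of the methylosome genes CLNS1A differed most from SCR in K562, and WDR77 on the arrays labelled HepG2. CLNS1A, which holds Sm proteins on a precursor ring, stood at 8.19 in K562 ADARkd against 7.80 in K562 SCR (0.39) and at 7.48 in ADARkd against 7.41 in SCR on the arrays labelled HepG2 (0.07). WDR77 (MEP50), which presents substrates to PRMT5, stood at 9.46 in K562 ADARkd against 9.58 in K562 SCR (-0.12). The arrays labelled HepG2 gave 8.60 in ADARkd against 7.89 in SCR, a difference of 0.71 or 1.64-fold. PRMT5, which makes symmetric dimethylarginine on Sm proteins, stood at 9.29 in K562 ADARkd against 9.19 in K562 SCR and at 9.48 in ADARkd against 9.19 in SCR on the arrays labelled HepG2. Its differences were 0.10 and 0.29. The enzyme and its cofactor thus both had higher ADARkd values on the arrays labelled HepG2, as did 60.9% of all kept genes. In K562 their differences had opposite signs, but both were smaller in size than the SD of 0.19 across kept genes.

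Of the 10 genes, 1 was at least 1.5-fold higher in K562 ADARkd and 0 were lower. The background among all kept genes in K562 was 0.267% higher and 0.759% lower. On the arrays labelled HepG2, 1 of the 10 was at least 1.5-fold higher and 0 lower, beside a background of 12.4% higher and 5.73% lower. The chosen genes had a median difference of 0.09 in K562, where all kept genes had -0.07, and of 0.11 on the arrays labelled HepG2, where all kept genes had 0.11. The SD of the differences across kept genes was 0.19 in K562 and 0.47 on the arrays labelled HepG2. The values of the 10 genes ran between -0.45 and 0.59 in K562 and between -0.15 and 0.71 on the arrays labelled HepG2. Nothing is read from these counts, since the set was chosen on this contrast.

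**Figure D2:**
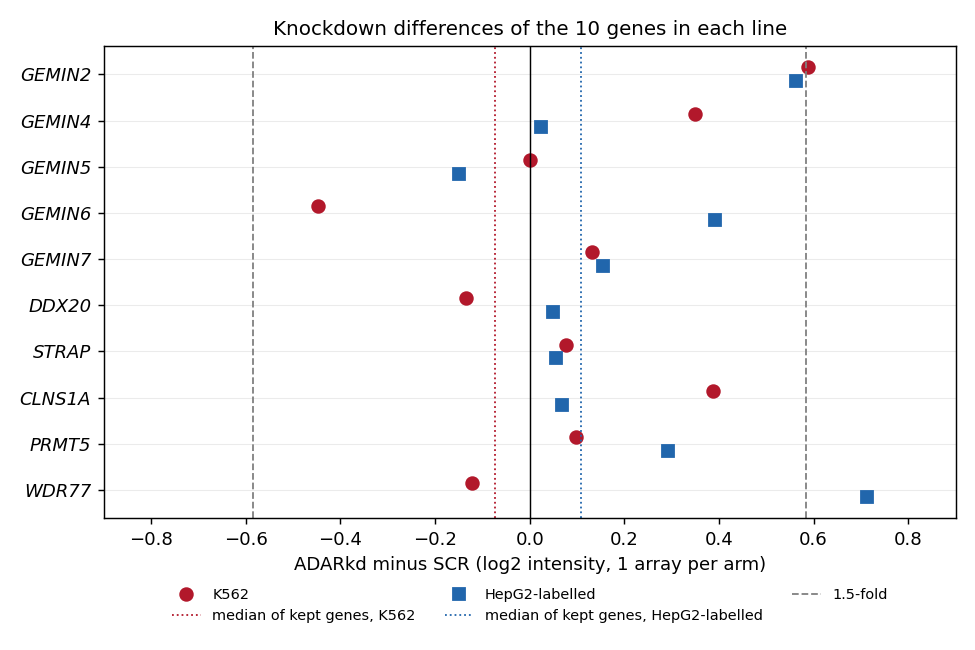
ADARkd minus SCR in log2 intensity (x axis) for each gene, with K562 as red circles and the arrays labelled HepG2 as blue squares; dotted lines are the medians of all kept genes, dashed lines 1.5-fold. GEMIN2 lies near the 1.5-fold line in both lines, WDR77 passes it on the arrays labelled HepG2, and GEMIN6 lies on opposite sides of 0.

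Scaling moved the small differences across 0. After quantile normalization or loess the median of kept genes on the arrays labelled HepG2 was 0.01, against 0.11 as deposited, and GEMIN4, DDX20, STRAP and CLNS1A turned negative there (-0.10, -0.02, -0.08 and -0.06 after quantile normalization). WDR77 was then 0.56 and 0.55, under 1.5-fold, and GEMIN2 0.53 and 0.57. In K562, GEMIN5 was -0.00016 as deposited and 0.08 after either setting, and the other 9 kept their sign. GEMIN2 was 0.65 in K562 after quantile normalization and 0.58 after loess, so its place at 1.5-fold rests on the scaling. The split of all kept genes at 1.5-fold moved as well: higher genes made up 26.0% in K562 as deposited, 61.2% after quantile normalization, 39.1% after loess and 36.7% with log2(value + 16). On the arrays labelled HepG2 the same share was 68.3% as deposited, 52.8% after quantile normalization, 53.9% after loess and 69.5% with log2(value + 16).

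The levels of the lines were compared next, a contrast that the rule for choosing the set had not used. The genes were still chosen with earlier results of these data known. WDR77 was higher in K562: its values were 9.46 and 9.58 there, against 8.60 and 7.89 on the arrays labelled HepG2. K562 minus HepG2 was 1.27 ± 0.24 in log2 units (SE, n = 2 arrays a line), or 2.42-fold, with an adjusted p = 0.00542 by limma. The lines differed by 0.86 between the ADARkd arrays and by 1.69 between the SCR arrays. WDR77 was the 1 member past both thresholds, an adjusted p under 0.05 and a 2-fold difference, and no member passed in the other direction. Of all 8028 genes tested, 10.3% passed with the higher level in K562 and 14.7% with the higher level on the arrays labelled HepG2.

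GEMIN5 came next, at 7.99 on both K562 arrays against 6.99 and 7.14 on the arrays labelled HepG2. The difference of 0.92 ± 0.20, or 1.90-fold, had a limma adjusted p = 0.0101 but lay under the 2-fold bound. DDX20 (0.56 ± 0.20, limma adjusted p = 0.0581), CLNS1A (0.55 ± 0.21, limma adjusted p = 0.0739) and GEMIN7 (0.47 ± 0.19, limma adjusted p = 0.09) did not pass, although both their K562 arrays were above both arrays labelled HepG2. Over the alternative fits the adjusted p of DDX20 ran between 0.0282 and 0.0758, that of CLNS1A between 0.041 and 0.0833 and that of GEMIN7 between 0.0484 and 0.117. The side of the adjusted p threshold on which these genes fall therefore varied with the fit.

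The remaining members were closer between the lines. GEMIN4 differed by -0.31 ± 0.21 (limma adjusted p = 0.272), GEMIN2 by -0.15 ± 0.20 (limma adjusted p = 0.567), PRMT5 by -0.10 ± 0.18 (limma adjusted p = 0.689) and STRAP by -0.09 ± 0.20 (limma adjusted p = 0.737). GEMIN6, at 0.02 ± 0.26 (limma adjusted p = 0.946), had a difference of -0.40 between the ADARkd arrays and of 0.44 between the SCR arrays. PRMT5 and its cofactor therefore had unlike line differences, -0.10 and 1.27. The median of the 10 genes was 0.25, beside 0.05 over all genes tested. Because the 2 arrays of a line are of different arms and leave 1 residual degree of freedom, these p-values rest largely on the spread assumed across genes and are approximate. On simulated arrays with the larger line differences, more of the calls were false than the adjusted p threshold allows in most runs. With the smallest simulated line difference this held in fewer runs. The simulated arrays held a smaller share of changed genes than passed the threshold here, and no difference between arms. Their share of false calls therefore cannot be carried over. Passing the threshold may still be weaker evidence here than the p states.

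**Figure D3:**
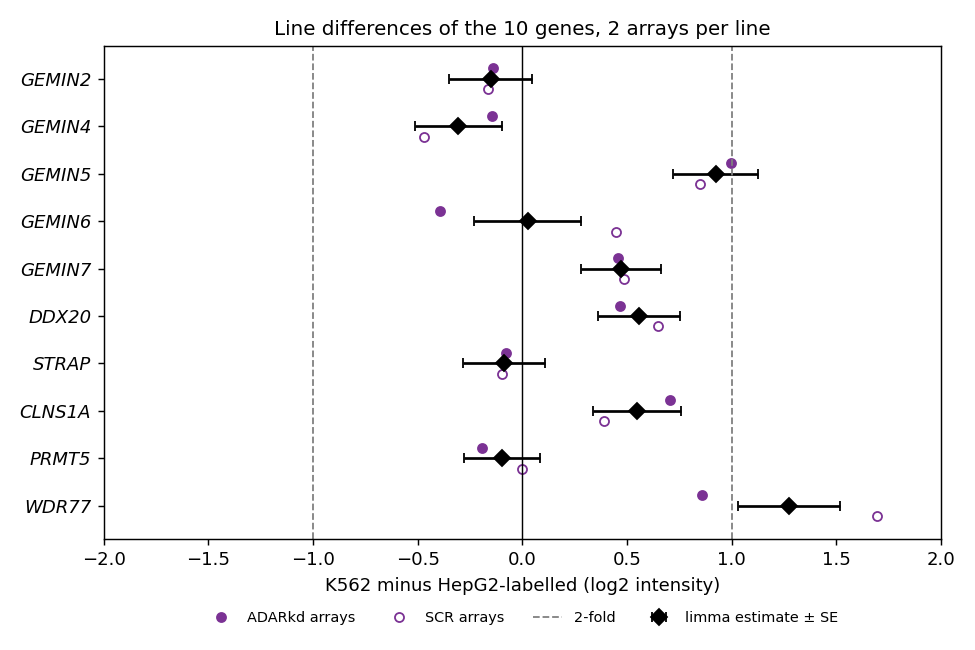
K562 minus the arrays labelled HepG2 in log2 intensity (x axis) for each gene: black diamonds are limma estimates with SE bars, filled circles the ADARkd arrays alone and open circles the SCR arrays alone; dashed lines mark 2-fold. WDR77 lies past 2-fold at 1.27 and GEMIN5 just inside it at 0.92, while the open and filled circles of GEMIN6 lie on opposite sides of 0.

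Other genes of the pathway were taken from 8 lists, which were drawn up with earlier results of these arrays known. Of 55 measured genes 53 were kept in each line. In K562, 0 of the 53 were at least 1.5-fold higher in ADARkd and 1 was lower, against backgrounds of 0.267% and 0.759%. The lower gene was PRMT6, an arginine methyltransferase of the nucleus, at 5.48 in K562 ADARkd against 6.08 in K562 SCR (-0.59). PRMT6 had a difference of 0.70 on the arrays labelled HepG2. On those arrays 8 of the 53 (15.1%) were at least 1.5-fold higher and 0 lower, against backgrounds of 12.4% and 5.73%. The median of the 53 was 0.25 there and -0.04 in K562. After quantile normalization or loess 6 were higher on the arrays labelled HepG2, with medians of 0.13 beside 0.01 over all kept genes, and in K562 SNRPF passed 1.5-fold (0.64 and 0.63) while PRMT6 did not. With log2(value + 16) 5 were higher on the arrays labelled HepG2. These counts are 11.3%, 11.3% and 9.43% of the 53, beside 8.46%, 8.92% and 9.32% of all kept genes under the same settings.

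Sm proteins are the cargo of the SMN complex. Of 8 Sm core genes 4 were measured and 3 kept. On the arrays labelled HepG2, 2 of these were at least 1.5-fold higher, beside 12.4% of all kept genes. SNRPF, a subunit of the ring intermediate that GEMIN2 holds, stood at 6.85 in ADARkd against 5.77 in SCR on those arrays (1.07), and at 7.14 in K562 ADARkd against 6.58 in K562 SCR (0.56). SNRPD1, a methylosome substrate in the same intermediate, stood at 8.22 in ADARkd against 7.27 in SCR on the arrays labelled HepG2 (0.95) and differed by -0.06 in K562. SNRPB, another methylosome substrate, differed by 0.03 on the arrays labelled HepG2, or -0.12 after quantile normalization and -0.14 after loess, and by 0.02 in K562. SNRPF has 4 named pseudogenes and SNRPB 1, which may add to their signals. LSM10, which replaces an Sm protein in the U7 particle of histone mRNA processing, stood at 7.31 in ADARkd against 6.18 in SCR on the arrays labelled HepG2 (1.13), and its partner LSM11 differed by -0.21. In K562 neither was far from its SCR value (-0.06 and 0.01).

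Among methylosome partners and other arginine methyltransferases, 8 genes were kept. Of these 2 were at least 1.5-fold higher and 0 lower on the arrays labelled HepG2, beside 12.4% and 5.73% of all kept genes. RIOK1, which competes with CLNS1A for PRMT5, stood at 7.56 in ADARkd against 6.76 in SCR there (0.80), and PRMT6 was the other. COPRS, a nuclear partner of PRMT5, differed by 0.47. In K562 RIOK1 differed by -0.06 and COPRS by -0.11. Of the 8 genes 6 had positive differences on the arrays labelled HepG2, where 60.9% of all kept genes did, and PRMT7 (-0.12) and PRMT9 (-0.04), other arginine methyltransferases, had negative ones.

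The lists for other steps of snRNP formation were short, and nothing is read from their counts. On the arrays labelled HepG2, 12.4% of all kept genes were at least 1.5-fold higher and 5.73% lower. The shares in K562 were 0.267% and 0.759%. Of 7 kept genes of snRNA export, cap methylation and import, 0 were 1.5-fold apart in either line; their values ran between -0.02 and 0.43 on the arrays labelled HepG2, and between -0.21 and 0.08 in K562. Of 8 kept Cajal body and maturation genes 1, ZPR1, which binds SMN protein, was at least 1.5-fold higher on the arrays labelled HepG2 (0.65). All 8 had positive differences there, 7 after quantile normalization and 5 after loess, where 60.9%, 51.2% and 50.8% of all kept genes did. The list includes COIL, the scaffold of Cajal bodies, at 0.51. Of 14 kept Integrator genes, whose complex cuts snRNA precursors, 1 was at least 1.5-fold higher there, INTS6 at 0.71. Of 10 kept particle-specific proteins 1, SNRNP27, was higher at 0.63. In K562 no kept gene of these lists was 1.5-fold higher or lower, and TOE1, an snRNA-trimming enzyme, had the highest value of the Cajal body list, 0.31.

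**Figure D4:**
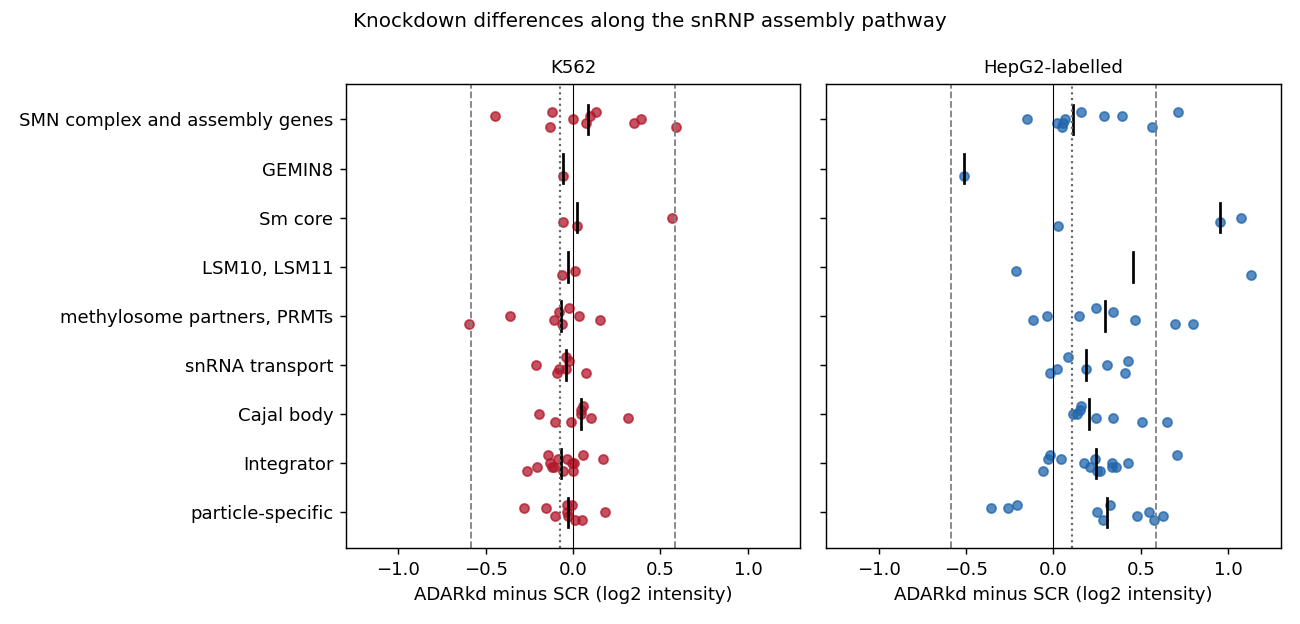
ADARkd minus SCR in log2 intensity (x axis) for kept genes of each list, K562 on the left and the arrays labelled HepG2 on the right; black bars are list medians, the dotted line the median of all kept genes and dashed lines 1.5-fold. In K562 most points lie close to the dotted line, and on the arrays labelled HepG2 the Sm core genes SNRPF and SNRPD1 and the U7 gene LSM10 lie farthest to the right.

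Between the lines, 3 of these 53 genes passed the limma test with the higher level in K562 and 0 with the higher level on the arrays labelled HepG2. These are 5.66% and 0% of the 53, beside 10.3% and 14.7% of all genes tested. The Integrator subunit INTS9 stood at 8.40 and 8.41 in K562 against 7.01 and 6.83 on the arrays labelled HepG2, a difference of 1.49 ± 0.20 (limma adjusted p = 0.00118). INTS2 differed by 1.04 ± 0.21 (limma adjusted p = 0.00654). SNRNP25, of the minor spliceosome, differed by 1.10 ± 0.23 (limma adjusted p = 0.00748). With WDR77 these were the pathway genes past both thresholds.

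The genes whose pattern over the 4 arrays was nearest to that of GEMIN2 were PSME2, H2BC5, RBBP4, NOP10 and NDUFA1. Likeness was the Euclidean distance between log2 values centred on each gene's own mean, over 6204 genes kept in both lines, and it reuses the values that chose GEMIN2. PSME2, a proteasome activator subunit, was nearest at a distance of 0.03, with differences of 0.57 in K562 and 0.60 on the arrays labelled HepG2. H2BC5, a histone H2B gene (0.15), RBBP4, a histone chaperone (0.16), NOP10 of H/ACA ribonucleoproteins (0.17) and NDUFA1 of respiratory complex I (0.22) followed. NOP10 had differences of 0.44 in K562 and 0.67 on the arrays labelled HepG2. PSME2 and RBBP4 have 6 and 7 named pseudogenes, so their values are uncertain, and both, like GEMIN2, lay under the filter level in K562 SCR. PSME2 also lay under it in SCR labelled HepG2, so that, like GEMIN2, it passed in both lines through its higher ADARkd value.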

How the data were processed

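Total RNA, purified with TRIzol, was biotin-labelled with an Affymetrix kit, per the labels' protocols. The values deposited are linear intensity values of transcript clusters. Per the submitters' processing notes RMA was used with hg18; versions are not given in the sources used here. Probe background was not analysed here, so it and the number of arrays limit precision.

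Of 17881 transcript clusters, 14432 had 1 gene symbol, 2408 several and 1041 none; the last 2 kinds were not used. A later RefSeq gene table held 14404 of the single symbols by Entrez number and changed 0. Log2 was taken with no offset, and the brightest cluster represented a gene; each of the 10 genes had 1 cluster value. The filter kept genes whose mean in the line reached the median of all genes. Promoters and their coordinates are RefSeq's, GRCh38.p14.

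Within a line the result is ADARkd minus SCR with no test. K562 minus HepG2 was tested by limma 3.58.1 (R 4.3.3), with terms for line and arm, eBayes with a trend on intensity, two-sided p-values and Benjamini-Hochberg adjustment over 8028 genes kept in either line; the fit was tested on simulated data. All members were named, with up to 4 genes per list by size of difference and the 5 genes nearest to GEMIN2. PRMT7 and PRMT9 were named in addition, for their negative differences on the arrays labelled HepG2. Members and lists were chosen with earlier results of these data known. Alternatives were quantile and loess normalization, an offset of 16, other filters (none, the 75th percentile), the mean of all clusters, a 2-fold threshold, no fold bound, no intensity trend and either arm alone. Nothing in the sources says that arrays of a line came from separate cultures. Figures were drawn with matplotlib 3.10.9.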

Additional observations from a re-analysis of the deposited data

Results flagged for a closer look

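As deposited, 3 of the 10 members had knockdown differences of opposite sign in the lines, with 1 array per line and arm and no test of the difference between the lines. GEMIN6 differed by -0.45 in K562 and by 0.39 on the arrays labelled HepG2, so that the K562 difference was -0.84 relative to the other. WDR77 differed by -0.12 in K562 and 0.71 on the arrays labelled HepG2, which is -0.83. DDX20 differed by -0.13 and 0.05, which is -0.18, and its sign on the arrays labelled HepG2 was negative after quantile normalization and loess. For GEMIN6 and WDR77 the opposite signs held under both. With either of these settings 6 members had opposite signs, GEMIN4, GEMIN5, STRAP and CLNS1A being the others. Among all genes kept in both lines 52.9% had opposite signs as deposited, 48.1% after quantile normalization and 48.2% after loess.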

How the results depend on the processing

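Member counts at 1.5-fold rest on single genes near the threshold. In K562 the 1 higher member, GEMIN2, became 0 after loess, with log2(value + 16), with the filter at the 75th percentile (which left GEMIN2 out) and at 2-fold. The count stayed 1 after quantile normalization. It was also 1 with no filter and with the mean of all clusters, but these settings could not change a member's difference. Every member had 1 cluster value and had passed the filter, so both are no check of the count. On the arrays labelled HepG2 the 1 higher member, WDR77, became 0 after quantile normalization, after loess and at 2-fold. The count stayed 1 with log2(value + 16), where WDR77 differed by 0.68. It was also 1 with no filter, the stricter filter and the mean of all clusters, which could not change the WDR77 difference of 0.71. The stricter filter could only have left WDR77 out, and did not. No alternative gave a member 1.5-fold lower in ADARkd. For K562 minus HepG2 the 1 member became 2 with no fold bound, when GEMIN5 joined WDR77, and was 1 in the other 7 fits, where the adjusted p of WDR77 ran between 0.00221 and 0.00814. GEMIN6 turned to -0.0083 in that comparison after loess. Among all kept genes, the 19 higher in K562 became 41 after quantile normalization, 11 with the offset, 170 with no filter, 1 with the stricter filter and 2 at 2-fold, and the 54 lower became 26, 19, 13 and 9 after quantile normalization, with the offset, the stricter filter and 2-fold. On the arrays labelled HepG2 the 879 higher became 450 with the stricter filter and 175 at 2-fold, and the 408 lower became 148, 112 and, with no filter, 693. Between the lines 830 genes higher in K562 became 448 with the stricter filter and 1567 with no fold bound, and the 1184 on the other side 711 and 1803. The filters changed both the number and the intensity of the genes counted. The causes of these changes were not tested. The labels give no replicate numbers to pair by, and the line comparison matched arrays by arm only, through its term for arm. A fit of ADARkd minus SCR with the line as a block could have been made and was left out, since the genes were chosen on that contrast. A smaller signal, as for GEMIN2, could lie nearer to background, which was not analysed here.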
